A study of Homo sapiens with 60 samples.

Results

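The genes described here are 39 interferon-stimulated antiviral genes, chosen by symbol from the 60675 genes of a count table for HT29 cells, and all 39 were found and measured. HT29 is an established human colorectal adenocarcinoma line. The cells were exposed for 24 h to herbal extracts of the digestive class or to vehicle, and mRNA libraries were sequenced with a kit that keeps strand. Water extracts of the formulas Sayeok-tang and Bojungikgi-tang were given at 500, 100 and 20 µg/mL, called high, medium and low. Ethanol extracts of Scutellariae Radix, Pinelliae Tuber, Zizyphi Fructus, Zingiberis Rhizoma (the dried ginger rhizome) and Zingiberis Rhizoma Recens (the fresh one) were given at the same 3 doses, and the ethanol extract of Coptidis Rhizoma at 320, 64 and 12.8 µg/mL. Each dose had 3 libraries, except Bojungikgi-tang with 2, and Coptidis Rhizoma and Zizyphi Fructus with 1. The vehicle group had 3 libraries, labelled 0.1% DMSO, whereas the text for the series gives 2% DMSO. The labels give no DMSO content for the extract libraries. The labels do not say that libraries of a group came from separate cultures, so p-values measure only the spread between these libraries, which may be technical. Per the text for the series, samples that gave no result for lack of RNA were left out.

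Interferon-stimulated genes are the transcripts that a cell raises when interferon, or a sensor of foreign or misplaced nucleic acid, signals. Type I and type III interferons act through cell-surface receptors and JAK kinases on the ISGF3 complex, which includes STAT2 and IRF9 and binds interferon-stimulated response elements in promoters. The products block virus entry, translation and assembly, and several of them, such as IRF9, STAT2 and IFIH1, feed back into the pathway. Epithelial cells hold a low resting level of this program without added interferon. In the colon epithelium, type III interferon is the form best known for acting at the mucosal surface. The 39 genes were grouped by role as IFIT proteins (4 genes), oligoadenylate synthetases (4), MX GTPases (2), ISG15 with its conjugation enzymes, HERC5 and HERC6, and the ligase DTX3L (6), the IFI family (5), sensing and helicases (2), transcription factors (3), PARP proteins (4) and other effectors (9).

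The 60 libraries held 18.02 M to 35.82 M gene counts (median 24.46 M). Levels below are in CPM, the read count of a gene scaled to the size of its library with TMM factors over all 60 libraries. Of the 54 libraries with replicates, 3 stood more than 10 median absolute deviations from the rest in their share of ribosomal protein or mitochondrial counts: vehicle replicate 1 (7.204% ribosomal protein), Scutellariae Radix low replicate 3 (9.348% ribosomal protein) and Pinelliae Tuber high replicate 2 (14.305% mitochondrial). Of the single libraries, Coptidis Rhizoma low had 15.225% mitochondrial counts, 20.75 such deviations away. Coptidis Rhizoma high had 3.439% mitochondrial and 6.689% ribosomal protein counts, 9.98 and 9.58 deviations away, just under the limit of 10 on both. The 10 colon epithelium markers summed to 8720 to 15500 CPM in every library, whereas 10 leukocyte markers summed to 8.9 to 22.9 CPM, 6 fibroblast markers to 1.56 to 3.3 CPM and 4 endothelial markers to 0.458 to 2.88 CPM. The titles of all 60 libraries name BatchC, while the sample codes place the vehicle libraries in a set of their own. What a code set stands for is not stated. The formulas, the gingers, Pinelliae Tuber with Scutellariae Radix, and Coptidis Rhizoma with Zizyphi Fructus each fill a further set. A difference from vehicle therefore cannot be told apart from a difference between code sets, while comparisons of doses, and of extracts that share a set, stay inside 1 set. For that reason each extract was compared first between its own high and low dose.

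The promoters of 6 of these genes are shown because they carry the letters of the interferon-stimulated response element. The motif searched was GAAA, any 2 bases and GAAA again, on both strands, in RefSeq windows from 250 bases before to 50 after the start site (GRCh38.p14); matches may overlap each other. Windows were given for 29 of the 39 genes, and 20 of these (69.0%) held the motif, against 4.38% of 27305 genes and 3.57% of 35116 windows. At least 2 matches were present in 11 of them, against 0.311% of all genes. The 200 bases before the start site are printed 5′ to 3′ on the strand of the gene, with the matches in capitals. They lie at chr10:89392423-89392622 (IFIT1, plus strand), chr1:1013297-1013496 (ISG15, plus strand), chr1:27672193-27672392 (IFI6, minus strand), chr14:94110536-94110735 (IFI27, plus strand), chr1:78620248-78620447 (IFI44L, plus strand) and chr4:168318753-168318952 (DDX60, minus strand).
IFIT1: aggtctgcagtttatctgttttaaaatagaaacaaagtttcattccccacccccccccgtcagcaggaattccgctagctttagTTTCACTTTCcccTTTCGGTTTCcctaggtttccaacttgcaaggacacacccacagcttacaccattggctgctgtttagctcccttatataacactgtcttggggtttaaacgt
ISG15: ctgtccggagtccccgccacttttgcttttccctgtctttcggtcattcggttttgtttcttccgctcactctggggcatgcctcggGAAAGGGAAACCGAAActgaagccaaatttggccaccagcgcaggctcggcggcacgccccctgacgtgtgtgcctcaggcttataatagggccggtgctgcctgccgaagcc
IFI6: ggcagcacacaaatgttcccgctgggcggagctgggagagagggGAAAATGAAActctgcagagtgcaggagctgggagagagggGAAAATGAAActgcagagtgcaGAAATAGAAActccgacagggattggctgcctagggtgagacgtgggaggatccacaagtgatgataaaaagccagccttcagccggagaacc
IFI27: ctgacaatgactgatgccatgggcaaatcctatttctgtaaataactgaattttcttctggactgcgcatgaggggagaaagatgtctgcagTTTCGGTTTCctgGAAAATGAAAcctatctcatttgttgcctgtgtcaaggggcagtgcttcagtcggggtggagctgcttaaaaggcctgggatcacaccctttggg
IFI44L: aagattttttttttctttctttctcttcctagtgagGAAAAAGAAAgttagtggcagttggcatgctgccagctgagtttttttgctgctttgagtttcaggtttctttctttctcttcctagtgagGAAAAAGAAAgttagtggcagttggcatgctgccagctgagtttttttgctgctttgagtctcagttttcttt
DDX60: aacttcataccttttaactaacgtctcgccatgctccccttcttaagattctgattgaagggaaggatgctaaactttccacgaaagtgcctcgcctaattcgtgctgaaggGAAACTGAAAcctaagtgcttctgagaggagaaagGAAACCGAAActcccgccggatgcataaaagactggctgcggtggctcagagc
All printed matches of IFI6, ISG15, IFI44L and DDX60 read in the direction of the gene. Both IFIT1 matches are on the other strand, and IFI27 has 1 on each strand. The ISG15 matches share bases. Windows of STAT2, IRF9, OAS1, XAF1, UBE2L6, HERC6, CMPK2, SAMD9L and IFI35 held no match. A match is a description of these letters only. In the Coptidis Rhizoma high library the median log2 ratio to the vehicle mean was 1.9 with the motif and 1.96 without it. From low to high Scutellariae Radix the median log2 fold changes were -0.74 and -0.78. The part of the motif in these values was not tested.

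In vehicle the resting level was far from uniform. Per kilobase of merged exons, ISG15, a ubiquitin-like protein that is both conjugated and secreted, was the most abundant, followed by IFI6, DTX3L, PLAAT4, PARP14 and OAS3, and TRIM22 and SAMD9L were lowest. The vehicle level of ISG15 was 39, 29.6 and 24.1 CPM and that of IFI6 29.5, 15.3 and 15.5 CPM, with vehicle replicate 1, 1 of the 3 libraries that stood apart, highest for both. PARP14, a mono-ADP-ribosyltransferase, had 124, 139 and 155 CPM, and OAS3 had 102, 103 and 116 CPM. TRIM22 had 4, 2 and 8 reads and SAMD9L 4, 7 and 7 reads in the same libraries, so both sit near the limit of detection. Summed over the 39 genes, the 3 vehicle libraries held 774 to 863 CPM, the Scutellariae Radix high libraries 596 to 620 CPM, the formulas at medium dose 1080 to 1240 CPM, and the Coptidis Rhizoma high library 2740 CPM.

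**Figure D1:**
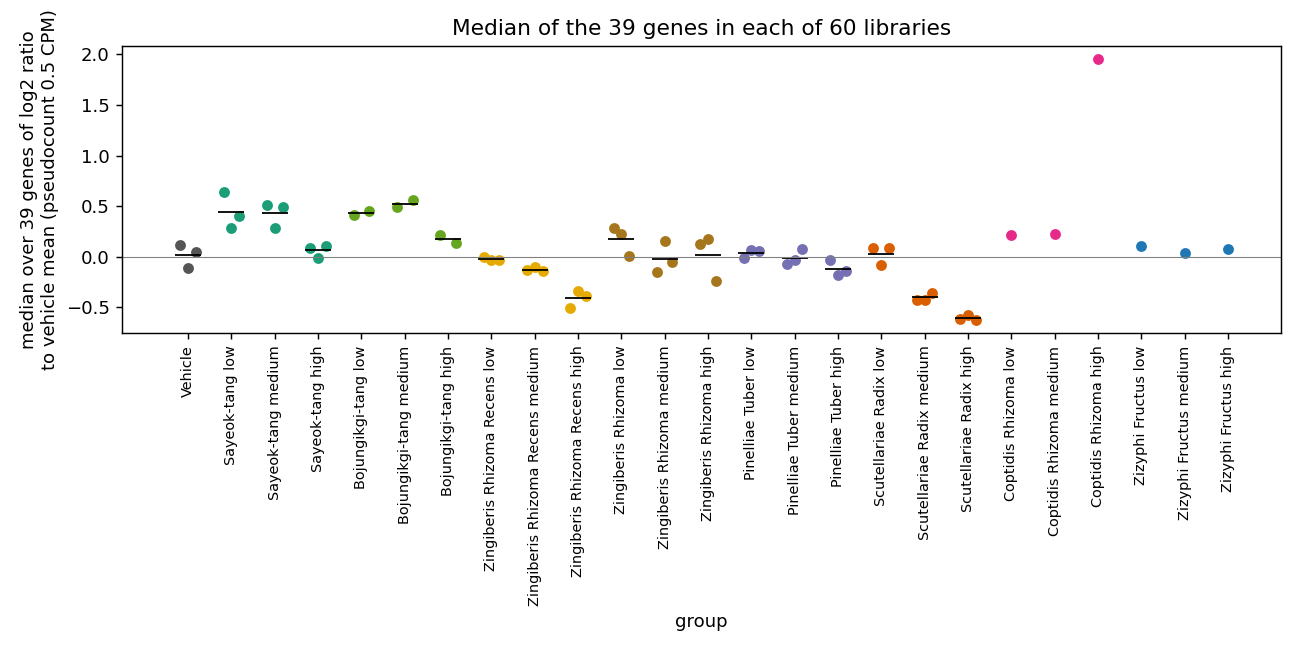
Median over the 39 genes of the log2 ratio to the vehicle mean (pseudocount 0.5 CPM, y axis) in each of the 60 libraries (points) by group (x axis), with the group mean as a line where a group has more than 1 library. The Coptidis Rhizoma high library is at 1.96, the Scutellariae Radix high libraries at -0.63 to -0.58 and the vehicle libraries at -0.12 to 0.12.

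The plot of library medians separates some of the groups from vehicle, while others overlap it. The single Coptidis Rhizoma high library stood above every other library. Both formulas at low and medium dose lay above vehicle, from 0.28 to 0.64 for Sayeok-tang low and from 0.49 to 0.56 for Bojungikgi-tang medium, and returned toward it at high dose. Scutellariae Radix at medium and high dose and fresh ginger at high dose (-0.5 to -0.34) lay below it. Dried ginger high ranged from -0.25 to 0.18 and Pinelliae Tuber high from -0.18 to -0.03.

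**Figure D2:**
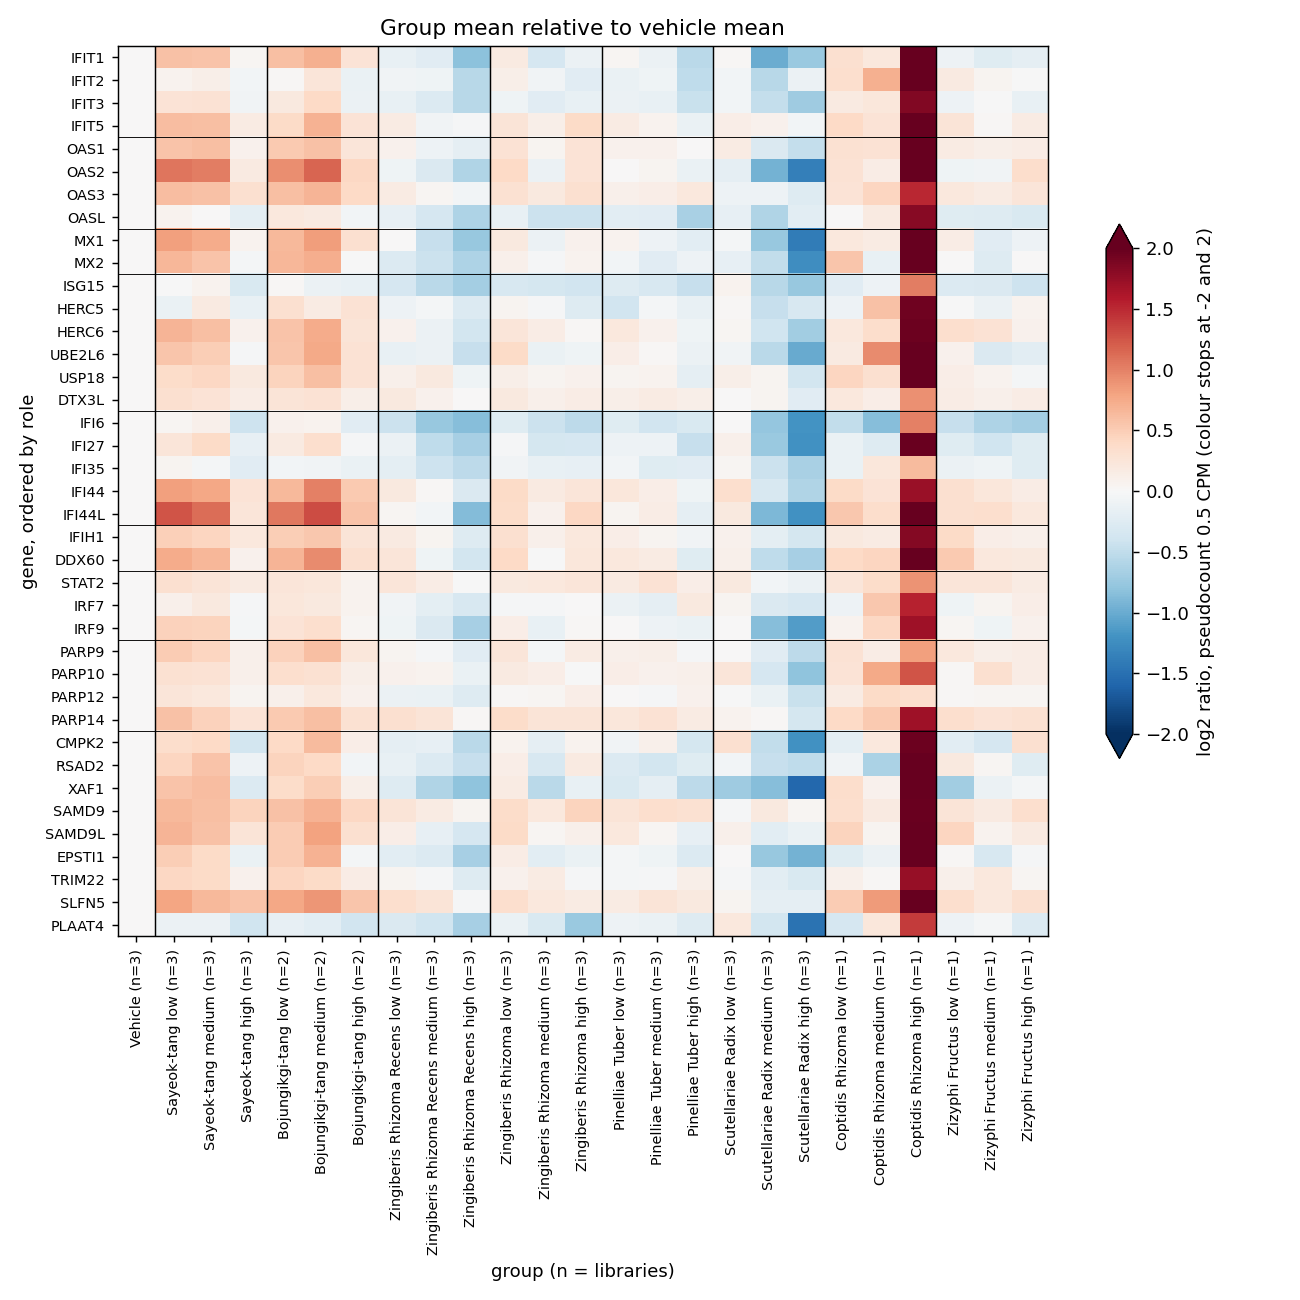
Log2 ratio of each group mean to the vehicle mean (pseudocount 0.5 CPM; colour, stopping at -2 and 2) for the 39 genes, ordered by role (rows, with lines between roles), in the 25 groups (columns, n = libraries). The column of Coptidis Rhizoma high is the reddest, with PARP12 near 0 in it, and that of Scutellariae Radix high is the bluest for most genes. Exceptions include IFIT1 and IFIT2, lowest at medium Scutellariae Radix, and IFIT5 and OASL, lowest at high Pinelliae Tuber.

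Coptidis Rhizoma, whose best known constituent is berberine, gave the largest values, from 1 library per dose and hence with no test. Its high library was close to standing apart in both shares given above and had the lowest epithelium marker sum, 8720 CPM. At high dose 38 of the 39 genes were more than 1.5-fold above the vehicle mean and 0 were more than 1.5-fold below it, while 15.6% of all 16763 genes were above and 17% below by that measure. The median log2 ratio of the 39 was 1.96, against -0.013 over all genes. The same 38 genes, all but PARP12, were also higher in this library than in each of the 54 replicated libraries, a property shared by 23.4% of all genes. In bulk RNA of this kind, a change in the number of cells in a state and a change in RNA per cell cannot be told apart.

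SLFN5 (ENSG00000166750, chromosome 17, 35243036 to 35273655, GENCODE 29 on GRCh38), a Schlafen family protein induced by interferon, had the largest ratio. It was at 19.6, 20.8 and 21.1 CPM in vehicle, and at 29.5, 37.4 and 313.0 CPM in the low, medium and high Coptidis Rhizoma libraries, a log2 ratio of 3.9 at high dose. The exact 95% Poisson interval of the high value was 306.0 to 320.0 CPM, which covers counting error only, not the spread between cultures. The SLFN5 values thus increased in the order of dose, from single libraries. IFI44L, a GTPase-like interferon-stimulated protein, had 1.52, 0.869 and 1.06 CPM in vehicle and 15.3 CPM at high dose (log2 ratio 3.26). UBE2L6, the E2 enzyme that carries ISG15, had 1.52, 0.757 and 0.834 CPM in vehicle and 14 CPM at high dose (3.24). XAF1, a pro-apoptotic factor, had 1.28, 0.813 and 1.33 CPM in vehicle and 14.2 CPM, or 372 reads, at high dose (3.16). The last 3 genes were all near 1 CPM in vehicle.

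The classical antiviral effectors stood high together in the same library. IFIT1, which binds foreign capped RNA, was at 32.7 CPM against 8.55, 6.17 and 8.26 in vehicle, and IFIT2 at 26.8 against 4.08, 4.79 and 5.53 CPM. IFIT3, which stabilises IFIT1, was at 45.4 CPM against 13.1, 10.3 and 13.2. The synthetases that activate RNase L behaved alike, with OAS1 at 119 CPM against 30.2, 26.3 and 30.7 and OAS2 at 31.2 CPM against 6.68, 4.32 and 6.33. MX1, a GTPase that traps viral nucleocapsids, was at 61.5 CPM against 10.2, 8.47 and 10.2. ISG15 had a smaller ratio (1.02; 63.3 CPM), as did IFI6 (1.01; 40.9 CPM), against a vehicle mean of 30.9 and 20.1 CPM. IFI27, a mitochondrial interferon-stimulated protein, was at 142 CPM against 45.9, 27.6 and 33.7. HERC6, an E3 ligase family member, was at 36.5 CPM against 9.54, 8.3 and 9.17, and USP18, which removes ISG15 and dampens receptor signalling, at 20.4 against 4.23, 4.12 and 4.21 CPM. USP18 has a near-identical copy, USP41, that may share reads with it. IRF9, the DNA-binding partner in ISGF3, was at 50.8 CPM against 16.7, 14.1 and 15.1, and STAT2 at 40.4 CPM against 19.6, 21.5 and 23. The smallest ratios were those of PARP12 (0.33), IFI35 (0.64), PARP9 (0.82), STAT2 (0.9) and DTX3L (0.92).

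The lower Coptidis Rhizoma doses were much nearer to vehicle than the high dose. Their medians, given below, still lay above those of the vehicle libraries (-0.12 to 0.12) and of the Zizyphi Fructus libraries (0.04 to 0.1). At medium dose 4 genes were past 1.5-fold above (3.6% of all genes) and 2 below (4.07%), with a median ratio of 0.23. UBE2L6 (0.94), SLFN5 (0.85), PARP10 (0.75) and IFIT2 (0.71) were the 4 above, and IFI6 (-0.86) and RSAD2 (-0.63) were below. At low dose 0 genes were past 1.5-fold above or below (1.26% and 2.01% of all genes) and the median was 0.22; leaving out vehicle replicate 1 or 3 made that count 2 and leaving out replicate 2 made it 1.

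**Figure D3:**
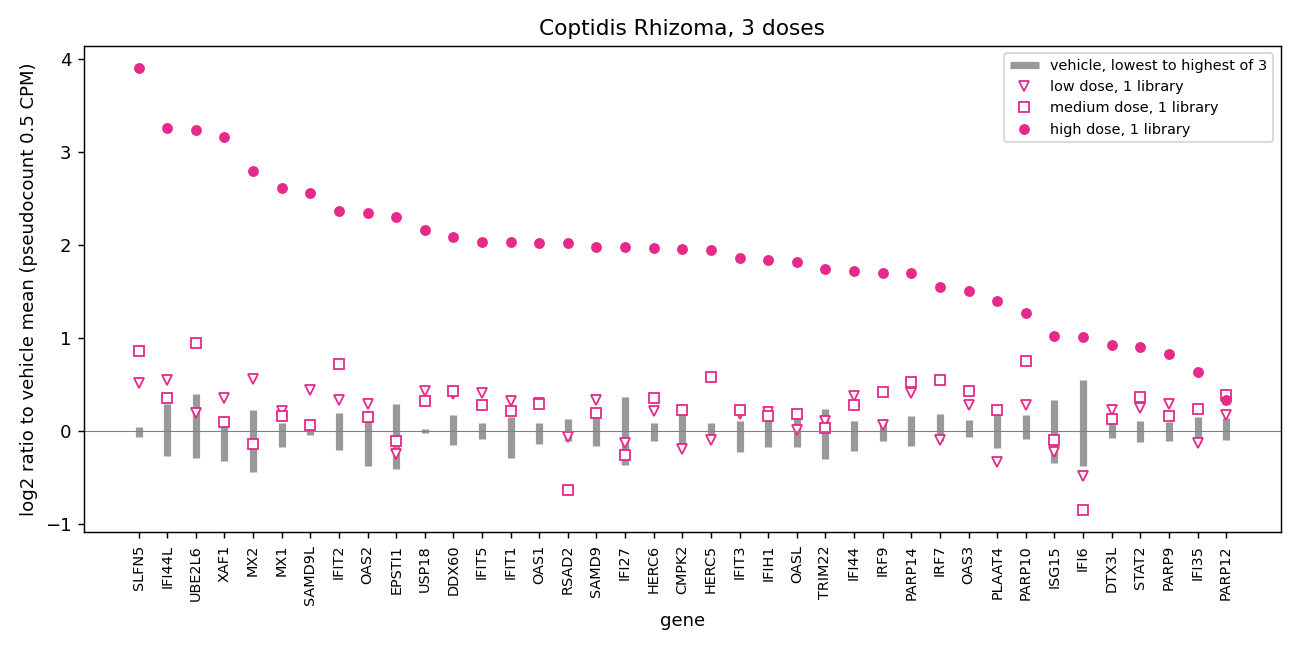
Log2 ratio to the vehicle mean (pseudocount 0.5 CPM, y axis) of the 39 genes (x axis, ordered by the high dose) in the 3 Coptidis Rhizoma libraries, 1 per dose, with the range of the 3 vehicle libraries as grey bars. The high-dose points run from 3.9 (SLFN5) to 0.33 (PARP12), and the low and medium points lie within -0.86 to 0.94.

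Other genes of the pathway in the Coptidis Rhizoma high library were read from lists of ligands, receptors and kinases, sensors and adaptors, regulators, further interferon-induced genes, and targets of interferon-gamma and IRF1. Of 11 ligand genes IFNE, an epithelial type I interferon, was the most counted, at 7.24 CPM against 4.96 to 6.03 CPM. IFNL1, a type III interferon, had 22 reads (0.839 CPM, exact 95% Poisson interval 0.526 to 1.27), against 0 to 2 reads in vehicle and at most 5 in the 54 replicated libraries. IFNB1 and IFNL2 each had 6 reads there and at most 2 in each of the 54. IFNA1 also had 6 reads there, but up to 5 in vehicle and up to 13 in the 54, so it did not stand above them. IFNA2, IFNA5 and IFNG had 0 reads in all 60 libraries, where a count of 0 allows up to 3 reads a library as a one-sided limit. Among further interferon-induced genes 17 of 36 were past 1.5-fold above and 0 below, among them ISG20 (2.92), an exonuclease, and APOL6 (2.64). Of 20 targets of interferon-gamma and IRF1, 12 were above and 1 below, with WARS1 at 2.67 and GBP1 at 2.41. IRF1 itself was at 82.1 CPM against 33.2 to 34.7, and JAK1 at 157.0 against 52.8 to 57.8 CPM. Receptors and kinases counted 3 of 9 above, namely JAK1 (1.48), JAK2 (0.92) and the receptor IFNGR2 (0.65). Sensors and adaptors counted 4 of 11 above and 1 below, and regulators 3 of 14 above. These counts are to be read against the 15.6% above and 17% below of all genes in this library. In the same library the 4 plasmacytoid dendritic cell markers summed to 1.3 CPM against 0.344 to 0.455 in vehicle, with 2 of the 4 at 0 in both. The leukocyte markers summed to 9.76 CPM against 11.3 to 12.7, with 4 of 10 at 0 in both. Of the colon epithelium markers 5 of 10 were more than 1.5-fold below vehicle. The part of these markers in the values of the antiviral genes was not tested.

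Scutellariae Radix, the root known for the flavones baicalin and wogonin, changed many of these genes in the fit that shares its estimate of the spread over all replicated libraries. Between its high and low dose 28 of the 39 genes fell and 0 rose, while 11.7% of all genes fell and 10.7% rose. The median log2 fold change was -0.78, against -0.02 over all genes. Without the 3 libraries that stood apart, which include a low-dose library of this extract, 29 genes were called. A fit on these 6 libraries alone, with its own estimate of the spread, called 10. The same kind of fit called 18 for Sayeok-tang, 15 for fresh ginger and 12 for Bojungikgi-tang, so the order of the extracts by calls turns with this choice. The shares of all genes called by these smaller fits are not given here, so their counts have no background to be read against. The genes called both ways were OAS1, OAS2, MX1, HERC6, IFI44L, IRF9, PARP10, CMPK2, EPSTI1 and PLAAT4.

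Among the IFIT proteins, IFIT1 and IFIT3 fell. IFIT1 was at 7.25, 6.24 and 9.91 CPM at low, 3.85, 3.3 and 3.7 at medium and 4.55, 4.01 and 4.54 at high dose, so the medium libraries were lowest. Its high-minus-low log2 fold change was -0.81 ± 0.17 (edgeR adjusted p = 6.5e-04). IFIT3 was at 12.1, 9.93 and 13 CPM at low and 8.03, 7.07 and 6.74 at high dose, with no overlap, a change of -0.67 ± 0.11 (edgeR adjusted p = 2.3e-05). IFIT2 (-0.07) and IFIT5 (-0.17) did not pass the test. IFIT2, which promotes apoptosis, was at 4.59, 5.38 and 3.92 CPM at low, 3.44, 3.27 and 2.64 at medium and 4.34, 4.48 and 4.39 at high dose, so its lowest libraries were again those of the medium dose. OASL, an enzymatically inactive relative of the synthetases, had the same order, with 5.58, 5.26 and 7.03 CPM at low, 4.21, 3.72 and 4.91 at medium and 5.4, 6.34 and 5.56 at high dose. Medium and high dose were not compared by a test.

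Of the synthetases, OAS1 and OAS2 fell and OAS3 and OASL did not pass. OAS1 (ENSG00000089127, chromosome 12, 112906777 to 112933222) was at 35.4, 30.4 and 32.1 CPM at low, 24.4, 21.8 and 25.2 at medium and 20.6, 21.3 and 20.4 at high dose, an ordered decline in which the groups did not overlap, with a change of -0.64 ± 0.1 (edgeR adjusted p = 2.9e-06). OAS2 was at 5.36, 5.38 and 4.44 CPM at low, 3.26, 2.49 and 2.57 at medium and 1.67, 1.68 and 2.42 at high dose, with a change of -1.37 ± 0.26 (edgeR adjusted p = 1.1e-04). OAS3 changed by -0.16 (edgeR adjusted p = 0.357), but its low-dose libraries read 126, 111 and 62.8 CPM, the last from the library with the ribosomal protein excess. Without the libraries that stood apart, the change of OAS3 was -0.41 (edgeR adjusted p = 3.3e-04). Both MX GTPases fell. MX1 (ENSG00000157601, chromosome 21, 41420304 to 41459214) was at 10.3, 7.65 and 10.0 CPM at low, 5.98, 4.32 and 6.08 at medium and 3.59, 3.23 and 3.14 at high dose, a change of -1.47 ± 0.19 (edgeR adjusted p = 6.3e-08). MX2, a relative that acts at the nuclear pore, was at 1.94, 1.22 and 1.09 CPM at low and 0.202, 0.474 and 0.568 CPM at high dose, a change of -1.71 ± 0.36 (edgeR adjusted p = 4.5e-04).

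Of the 6 genes grouped with ISG15, which include DTX3L, 5 fell, all but HERC5. UBE2L6 was at 0.9, 0.667 and 1.33 CPM at low and 0.253, 0.388 and 0.151 CPM at high dose, a change of -1.82 ± 0.4 (edgeR adjusted p = 7.4e-04). HERC6 was at 9.72, 9.03 and 9.1 CPM at low and 5.15, 5.82 and 5.15 at high dose, a change of -0.78 ± 0.15 (edgeR adjusted p = 1.6e-04). ISG15 itself was at 25.5, 23.2 and 48.8 CPM at low and 19.8, 17.3 and 17.1 at high dose, and its fall depended in size on the third low-dose library: the change was -0.82 with it and -0.44 without the libraries that stood apart (edgeR adjusted p = 1.2e-04 and 7.5e-04). In that library ISG15, IFI6 (34.3 CPM), IFI27 (56.8 CPM) and PLAAT4 (34.3 CPM) were above both other low-dose libraries. OAS3, PARP14 (95.6 CPM), SAMD9 (33.5 CPM) and SLFN5 (16.2 CPM) were below both. USP18 fell by 0.53 on the log2 scale (edgeR adjusted p = 0.00644); without high replicate 2 or low replicate 3 it did not pass. DTX3L, the ligase partner of PARP9, had the smallest called change (-0.22 ± 0.08, edgeR adjusted p = 0.0336) and did not pass without each of 4 libraries, high replicates 1 and 2 and low replicates 1 and 2.

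All 5 IFI family genes fell. IFI44L was at 1.31, 1.14 and 1.73 CPM at low and 0.152, 0.216 and 0.265 CPM at high dose, a change of -2.63 ± 0.5 (edgeR adjusted p = 1.3e-04). IFI44 was at 7.11, 8.09 and 10.5 CPM at low, 4.44, 5.69 and 5.67 at medium and 3.59, 5.04 and 4.16 at high dose, a change of -0.98 ± 0.14 (edgeR adjusted p = 1.7e-06). IFI27 was at 30.6, 27.3 and 56.8 CPM at low, 20.4, 21.5 and 21.4 at medium and 15.9, 14.6 and 15 at high dose, a change of -1.31 ± 0.2 (edgeR adjusted p = 3.9e-06). The high and low groups did not overlap for these 3 genes. IFI6, an antiviral protein of the endoplasmic reticulum, was at 15.1, 11 and 34.3 CPM at low and 9.75, 8.45 and 7.27 at high dose, a change of -1.21 ± 0.25 (edgeR adjusted p = 5.2e-04), which was -0.62 and no longer passed without low replicate 3 (edgeR adjusted p = 0.0578). Both sensing genes fell: IFIH1, the sensor of long double-stranded RNA, by 0.47, and DDX60, a helicase that aids RNA sensing, by 0.85 on the log2 scale. DDX60 was at 8.01, 7.58 and 5.7 CPM at low, 4.21, 3.83 and 5.4 at medium and 3.89, 4.05 and 3.9 at high dose.

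The transcription factors differed in size. IRF9 (ENSG00000213928, chromosome 14, 24161053 to 24166565) was at 15, 13.7 and 17.2 CPM at low, 8.06, 8.36 and 8.39 at medium and 7.53, 7.33 and 5.49 at high dose, a change of -1.16 ± 0.14 (edgeR adjusted p = 1.5e-08). STAT2 was at 25.8, 24.5 and 23.3 CPM at low and 20.5, 19.2 and 19.3 at high dose, a change of -0.31 ± 0.08 (edgeR adjusted p = 0.00382). IRF7, which amplifies interferon transcription, changed by -0.38 and did not pass (edgeR adjusted p = 0.0914). The 4 PARP genes all fell, by 1.07 for PARP10, 0.53 for PARP9, 0.43 for PARP12 and 0.42 for PARP14 on the log2 scale. PARP9 was at 45.1, 44.5 and 36.5 CPM at low and 29.2, 28 and 29.6 CPM at high dose. PARP14 was at 174, 170.0 and 95.6 CPM at low, with low replicate 3 below every high-dose library, and at 108, 110.0 and 109 CPM at high dose. Its call was lost without low replicate 1 or 2. PARP9 and DTX3L lie head to head with overlapping ends on opposite strands, as do CMPK2 and RSAD2, and no source used here gives the strand setting of the counting. IRF9 overlaps the protein-coding gene AL136295.5 on the same strand, which a strand setting would not separate. On opposite strands, IFIT1, IFIT2 and IFIT3 overlap LIPA, PARP10 overlaps GRINA and SPATC1, and TRIM22 overlaps TRIM5. TRIM22 also overlaps OR56B1 on its own strand. Reads of all these partners may therefore not be fully separated.

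Of the 9 other effectors 4 fell. PLAAT4 (ENSG00000133321, chromosome 11, 63536809 to 63546462), a phospholipase-like growth suppressor also known as RARRES3, was at 18, 17 and 34.3 CPM at low, 15.8, 15.1 and 15.5 at medium and 6.82, 6.08 and 7.72 at high dose. Its change of -1.71 ± 0.15 (edgeR adjusted p = 1.3e-11) had the smallest adjusted p of the 39 and lay mostly between medium and high dose. CMPK2, a mitochondrial nucleotide kinase, was at 3.24, 2.55 and 4.78 CPM at low and 0.859, 0.819 and 1.02 CPM at high dose, a change of -1.92 ± 0.22 (edgeR adjusted p = 4.9e-09). EPSTI1 fell by 2.17 on the log2 scale (edgeR adjusted p = 2.1e-04). XAF1 had 17, 19 and 0 reads at low, 9, 14 and 9 at medium and 0, 0 and 4 at high dose, against 26, 29 and 35 in vehicle. The fitted change of XAF1, -3.12 ± 0.78 (edgeR adjusted p = 0.00293), rests on these few reads, and its low and high groups overlap at 0. SAMD9 (0.06), SLFN5 (-0.23), RSAD2 (-0.93), SAMD9L (-0.77) and TRIM22 (-1.58) did not pass. SLFN5 was at 23.8, 23.6 and 16.2 CPM at low and 16.7, 18.5 and 19 CPM at high dose, and without the libraries that stood apart its change was -0.39 (edgeR adjusted p = 1.9e-04).

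**Figure D4:**
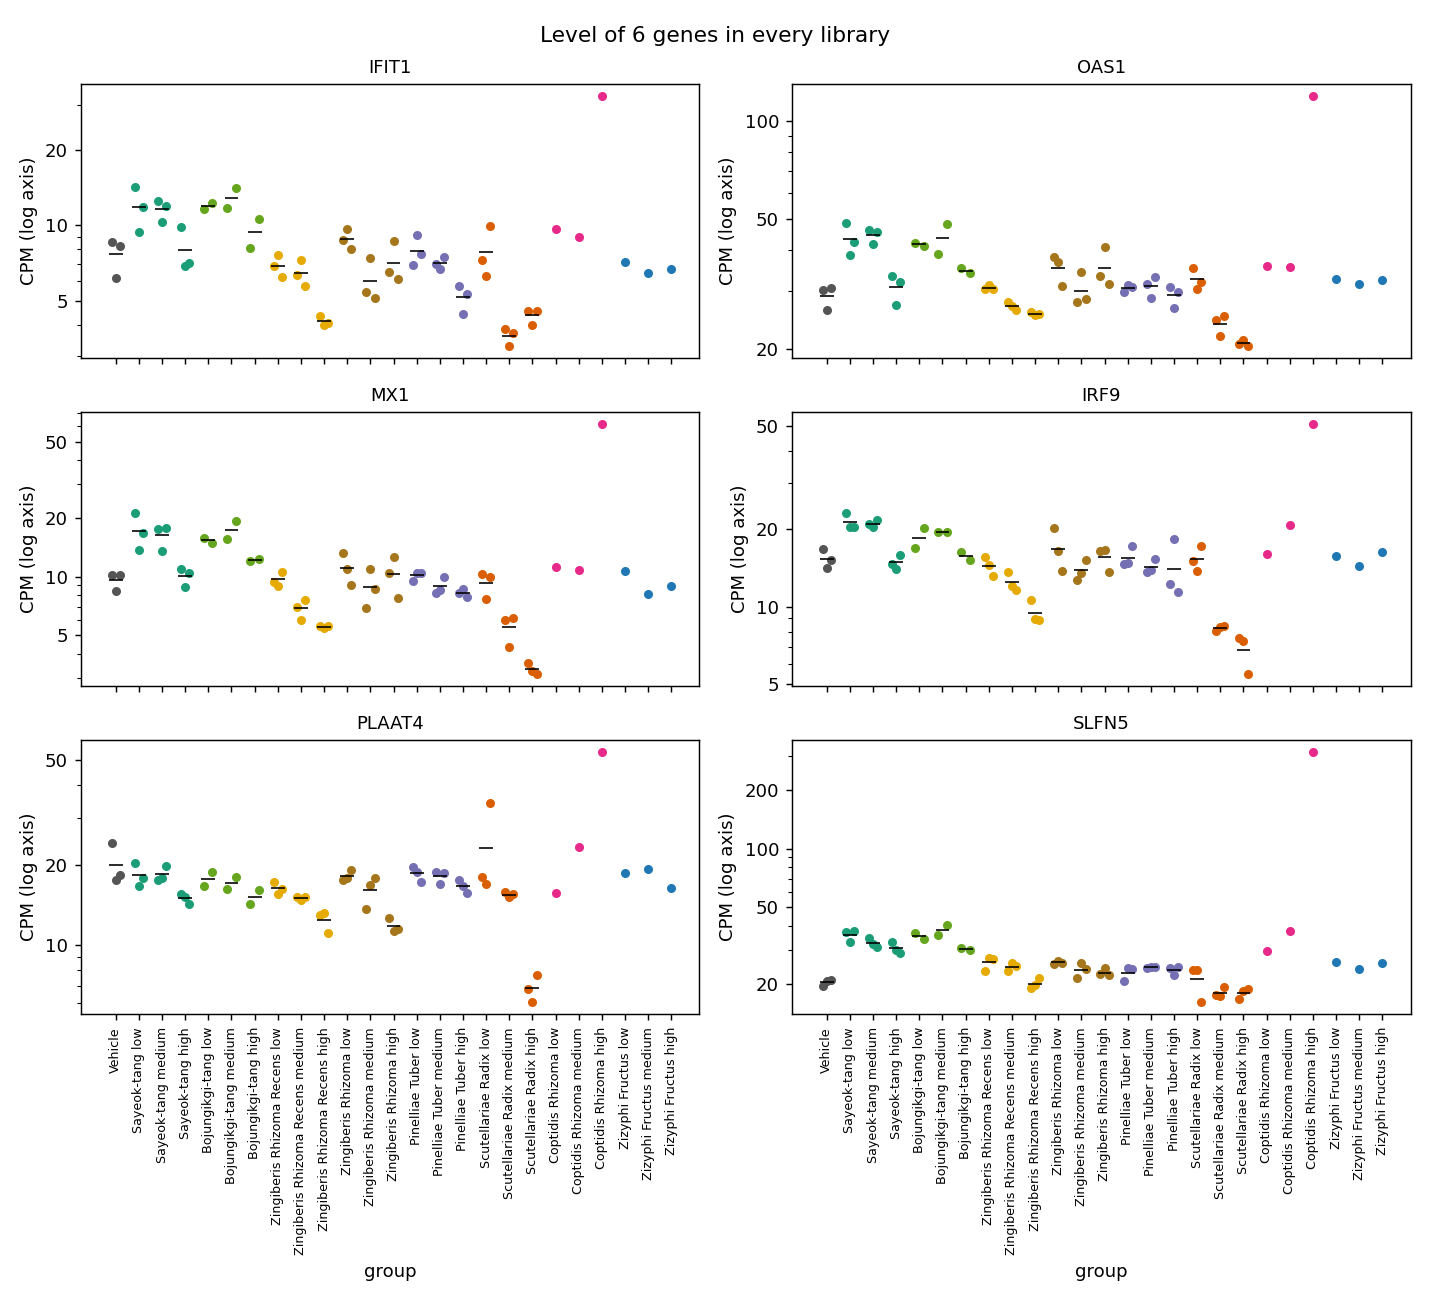
CPM (log axis) of IFIT1, OAS1, MX1, IRF9, PLAAT4 and SLFN5 in every library (points, 1 per library) by group (x axis), with the group mean as a line where a group has more than 1 library. MX1 at high Scutellariae Radix (3.59, 3.23 and 3.14 CPM) lies below all other libraries, and the Coptidis Rhizoma high library (61.5 CPM) above them.

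Against vehicle the same extract showed the change by dose. At low dose 0 of 39 genes were called (edgeR; 3 had an unadjusted p under 0.05 and DESeq2 called 0), at medium dose 14 fell and at high dose 27 fell, and 0 rose at each dose. Over all genes 0.382% were called at low dose, and 4.64% and 12.1% fell at medium and high dose. The medians were 0.05, -0.53 and -0.71. OASL (-0.64) and IFIT2 (-0.63) fell at medium dose, where IFIT1 fell by 1.07 and IRF9 by 0.88 on the log2 scale. At high dose OASL (-0.21) and IFIT2 (-0.12) did not pass, while PLAAT4 (-1.52), IRF9 (-1.17), MX1 (-1.52) and CMPK2 (-1.56) had the smallest p. Vehicle replicate 1, which stood apart, bears on the medium-dose count: without it 7 genes fell, and without medium replicate 2, 9.

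Genes of the same pathway outside the 39 moved in both directions between high and low Scutellariae Radix. Further interferon-induced genes counted 1 risen and 14 fallen of 36. The fallen ones with the smallest p were TNFSF10 (-1.19 ± 0.13), TRIM21 (-0.67 ± 0.09), SP110 (-0.77 ± 0.11) and IFITM3 (-1.22 ± 0.19), given as log2 fold change ± SE. Targets of interferon-gamma and IRF1 counted 4 risen and 10 fallen of 20. WARS1 (0.52 ± 0.06) and CD274 (1.18 ± 0.23), the checkpoint ligand PD-L1, rose, while GBP2 (-0.69 ± 0.08) and the immunoproteasome subunit PSMB8 (-0.99 ± 0.17) fell. Of 11 sensors and adaptors 2 rose and 4 fell, the latter including TLR3 (-0.99 ± 0.15), RIGI (-0.41 ± 0.11) and DHX58 (-0.61 ± 0.17). Of 14 regulators 1 rose and 3 fell, with IRF1 at -0.32 ± 0.08, and of 9 receptors and kinases IFNGR1 rose (0.26 ± 0.06). Of all 16763 genes 22.5% were called in this comparison, with 10.7% risen and 11.7% fallen. Movement in both directions is therefore not particular to these lists.

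Pinelliae Tuber, which shares its code set with Scutellariae Radix, gave a much narrower change. Between high and low dose OASL and IFIT1 fell and 0 genes rose, against 0.626% of all genes that fell, with a median of -0.18. IFIT1 was at 6.92, 9.1 and 7.65 CPM at low and 5.7, 4.42 and 5.31 at high dose, a change of -0.61 ± 0.17 (edgeR adjusted p = 0.0471). OASL was at 5.53, 5.69 and 6.01 CPM at low and 4.61, 3.72 and 4.06 at high dose, a change of -0.47 ± 0.13 (edgeR adjusted p = 0.0423). The groups did not overlap for either gene. Both calls were lost without high replicate 2, the library with 14.305% mitochondrial counts, or without each low-dose library in turn, while leaving out high replicate 1 gave 8 calls. A fit on these 6 libraries alone called 0, and for high dose against vehicle 0. IFIT2 (-0.43) and IFIT3 (-0.34) came next and did not pass. Against vehicle OASL (-0.69), IFIT2 (-0.58), IFIT3 (-0.45) and IFIT1 (-0.55) fell at high dose, where 2.89% of all genes fell, and without vehicle replicate 1 the number was 2. At medium dose STAT2 rose (0.3 ± 0.08, edgeR adjusted p = 0.0317; 1.05% of all genes rose), a call lost without each of the 3 medium libraries or without vehicle replicate 1 or 2. At low dose 0 were called (edgeR; 0.549% of all genes were called, 1 of the 39 had an unadjusted p under 0.05 and DESeq2 called 0).

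Set directly against each other at high dose, Scutellariae Radix was lower than Pinelliae Tuber for 25 genes and higher for 2, while 12.9% and 9.9% of all genes were lower and higher. A fit on these 6 libraries alone called 9, namely OAS2, MX1, MX2, IFI6, PARP9, PARP10, PARP12, CMPK2 and PLAAT4. The largest difference relative to its error was that of PLAAT4, at 6.82, 6.08 and 7.72 CPM against 17.5, 16.6 and 15.7 (-1.27 ± 0.15, edgeR adjusted p = 2.5e-08). IRF9 was at 7.53, 7.33 and 5.49 CPM against 12.2, 18.2 and 11.4, and MX1 at 3.59, 3.23 and 3.14 against 8.23, 8.63 and 7.84. The 2 genes higher under Scutellariae Radix were OASL (0.48 ± 0.13, edgeR adjusted p = 0.00437) and IFIT2 (0.45 ± 0.14, edgeR adjusted p = 0.0139), and the call on IFIT2 was lost without Pinelliae Tuber high replicate 2. The high-minus-low change itself was more negative for Scutellariae Radix in 17 genes and less negative in 0, against 5.35% and 4.24% of all genes. These included all 5 IFI family genes, both MX GTPases, IRF7 and IRF9, but 0 of the 4 IFIT genes. Without the 3 libraries that stood apart the calls on IRF7 (-0.07, edgeR adjusted p = 0.872), IFI6 (-0.51, edgeR adjusted p = 0.264), IFI35 (-0.27, edgeR adjusted p = 0.234), IFI44 (-0.6, edgeR adjusted p = 0.0504) and EPSTI1 (-1.61, edgeR adjusted p = 0.101) were lost, and OAS3, DTX3L, IFIH1, STAT2, PARP14, XAF1 and SLFN5 were called. IRF7 was at 22.8, 46.4 and 23.8 CPM in the Pinelliae Tuber high libraries, the second of which stood apart. A fit on the 12 libraries of these 4 groups alone called 3 genes, OAS2, MX1 and PLAAT4. For IFIT1 the difference of the changes was -0.2 ± 0.24 (edgeR adjusted p = 0.652) and for OASL 0.45 ± 0.17 (edgeR adjusted p = 0.0955).

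**Figure D5:**
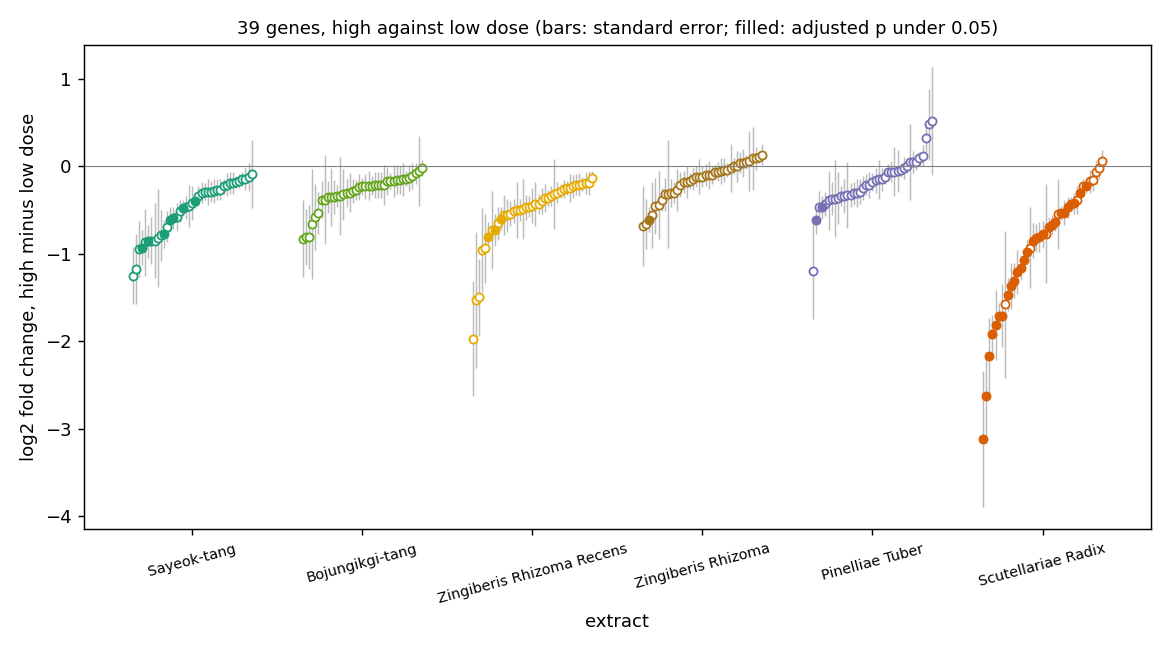
Log2 fold change from low to high dose (y axis) of the 39 genes, sorted within each of the 6 replicated extracts (x axis). Bars give the standard error, and filled points have an edgeR adjusted p under 0.05. All 39 points are below 0 for Sayeok-tang, Bojungikgi-tang and Zingiberis Rhizoma Recens, and the range is widest for Scutellariae Radix.

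The 2 gingers come from the same plant, fresh or dried, and differed at high dose. Fresh ginger lowered MX1, IRF9 and IFIT1 from low to high dose, 3 of 39 genes, where 0.304% of all genes fell and 0 of the 39 rose. All 39 log2 fold changes were negative, with a median of -0.45 against 0.0 over all genes. MX1 was at 9.43, 8.97 and 10.6 CPM at low, 6.98, 6.0 and 7.6 at medium and 5.53, 5.44 and 5.53 at high dose, an ordered decline without overlap (-0.81 ± 0.17, edgeR adjusted p = 0.0112). IRF9 was at 15.6, 14.5 and 13.1 CPM at low, 13.6, 12 and 11.6 at medium and 10.6, 8.97 and 8.87 at high dose (-0.6 ± 0.13, edgeR adjusted p = 0.0174). IFIT1 was at 6.84, 7.58 and 6.21 CPM at low and 4.32, 4.0 and 4.07 at high dose (-0.73 ± 0.18, edgeR adjusted p = 0.0365). Each of the 3 calls was lost without some of the libraries, and the number of called genes was 0 without high replicate 2 and 1 without high replicate 1 or 3 or low replicate 2 or 3. It was 15 in a fit on these 6 libraries alone and 18 when the 3 libraries that stood apart, none of them from the gingers, were left out of the shared estimate of the spread.

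Against vehicle fresh ginger high was lower for 15 genes and higher for 0, while 3.36% of all genes fell. OASL (-0.67), IFIT3 (-0.58), IRF9 (-0.69) and IFI35 (-0.53) had the smallest p, and the list covered 3 IFIT genes, 4 of 5 IFI genes and PLAAT4. ISG15 was at 18.2, 19.7 and 19.1 CPM and IFI6 at 9.07, 12.9 and 10.8 CPM, below the vehicle range for both. Without vehicle replicate 1 the number was 7, and it was 9 without fresh ginger high replicate 1 or 3. At medium dose IFI35 and ISG15 fell (1.34% of all genes) and at low dose SLFN5 rose (1.35% of all genes). Both counts became 0 without vehicle replicate 1, the medium-dose count also without each medium library, and the low-dose count without vehicle replicate 2 or low replicate 2 or 3. Without vehicle replicate 3 they were 4 and 3. Outside the 39, fresh ginger high was below vehicle for 8 of 36 further interferon-induced genes, among them SP110 (-0.62 ± 0.1) and SP100 (-0.28 ± 0.06), and for 3 of 20 targets of interferon-gamma and IRF1. STING1, the adaptor of DNA sensing, fell (-0.39 ± 0.08) and the kinase TBK1 rose (0.32 ± 0.07).

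Dried ginger changed 1 of the 39 genes between high and low dose, a count near the share of all genes that fell. PLAAT4 was at 17.6, 17.8 and 19.1 CPM at low, 13.7, 16.8 and 17.9 at medium and 12.6, 11.3 and 11.5 at high dose, a fall (-0.61 ± 0.14, edgeR adjusted p = 0.0052) that held without each library in turn, where 2.04% of all genes fell. The median of the 39 was -0.12. Against vehicle PLAAT4 (-0.74) and OASL (-0.46) fell and SAMD9 (0.46), IFIT5 (0.4), STAT2 (0.24) and OAS1 (0.29) rose at high dose. Of all genes 6.33% fell and 6.79% rose there, so these counts of the 39 were also near the shares of all genes. Without vehicle replicate 1 PLAAT4 alone was called, without vehicle replicate 2 or dried ginger high replicate 2 the number was 2, and without vehicle replicate 3 it was 10. OASL fell at medium dose (-0.47 ± 0.12, edgeR adjusted p = 0.0369; 0.65% of all genes fell), and SLFN5 rose at low dose (0.34 ± 0.09, edgeR adjusted p = 0.0398; 0.758% of all genes rose). Each of these calls was lost without vehicle replicate 1 or 2. The first was also lost without dried ginger medium replicate 1 or 2, and the second without each of the low-dose libraries, while without vehicle replicate 3 the low-dose count was 5.

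At equal high dose, fresh ginger was lower than dried ginger for 13 of the 39 genes and higher for 0, while 1.63% of all genes were lower and 0.626% higher. The median difference was -0.42. IRF9 was at 10.6, 8.97 and 8.87 CPM under fresh and 16.4, 16.6 and 13.6 under dried ginger (-0.72 ± 0.13, edgeR adjusted p = 3.6e-04). MX1 was at 5.53, 5.44 and 5.53 CPM against 10.5, 12.6 and 7.77 (-0.91 ± 0.17, edgeR adjusted p = 4.9e-04), and OAS1 at 25.8, 25.3 and 25.5 CPM against 33.3, 41.1 and 31.6 (-0.47 ± 0.1, edgeR adjusted p = 0.0014). The groups did not overlap for these 3 genes. OAS2 was at 2.28, 3.96 and 4.63 CPM against 7.16, 8.78 and 5.44 (-0.97 ± 0.22, edgeR adjusted p = 0.00736). Dried ginger high replicate 2 was the highest of its group for each of these 4 genes, and without it 4 genes were called; without fresh ginger high replicate 1 there were 7, and in a fit on these 6 libraries alone 22. PLAAT4 was not called different between the gingers, at 12.9, 13.2 and 11.1 CPM under fresh and 12.6, 11.3 and 11.5 CPM under dried ginger. The change from low to high dose was called different between the gingers for 0 of the 39 genes (edgeR; 7 had an unadjusted p under 0.05 and DESeq2 called 0; 0.501% and 0.143% of all genes were called lower and higher). The widest such difference relative to its error was that of MX1 (-0.71 ± 0.23, edgeR adjusted p = 0.271).

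Both formulas stood above vehicle at low and medium dose and nearer to it at high dose, and Bojungikgi-tang was highest at medium dose. From low to high dose Sayeok-tang, a formula containing dried ginger, lowered 7 of 39 genes and raised 0, while 0.286% of all genes fell. All 39 log2 fold changes were negative, with a median of -0.42 against 0.001 over all genes. OAS1 was at 48.6, 38.7 and 42.5 CPM at low, 46.1, 41.8 and 45.6 at medium and 33.3, 27.2 and 32 at high dose (-0.48 ± 0.09, edgeR adjusted p = 0.00731). MX1 was at 21.4, 13.7 and 16.8 CPM at low, 17.7, 13.6 and 17.8 at medium and 11, 8.88 and 10.4 at high dose (-0.77 ± 0.16, edgeR adjusted p = 0.0106). PARP9 was at 66.8, 53.4 and 59.1 CPM at low and 45.3, 43.2 and 46.9 at high dose (-0.4 ± 0.08, edgeR adjusted p = 0.0106). Low and medium dose overlapped while the high dose lay below both. OAS2 (-0.93), IFI44 (-0.59), CMPK2 (-0.86) and HERC6 (-0.61) were the other 4. Low replicate 1 was the highest of its group for most of these, and without it, or without high replicate 2, 0 genes were called. Without high replicate 1, high replicate 3 or low replicate 3 the number was 4, 2 and 4. In a fit on these 6 libraries alone it was 18. Without the 3 libraries that stood apart it was 19.

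Bojungikgi-tang, with 2 libraries a dose, had 39 negative changes from low to high dose with a median of -0.23, and 0 were called by edgeR (7 had an unadjusted p under 0.05, DESeq2 called 0, and 0.0656% of all genes were called). A fit on these 4 libraries alone called 12. In 34 of the 39 genes both high libraries lay below both low ones, as they did in 22.5% of all genes. IFIT3 had the smallest p, at 13.6 and 14.6 CPM at low and 11.2 and 11.1 at high dose (-0.34 ± 0.13, edgeR adjusted p = 1). MX2 (-0.81), PARP9 (-0.23) and OAS1 (-0.27) came next. At high dose the formulas were not called different for any of the 39 genes (edgeR; 1 had an unadjusted p under 0.05 and DESeq2 called 0), with 0.00597% of all genes called. The smallest p there was that of CMPK2 (-0.62 ± 0.21, edgeR adjusted p = 1). Their changes from low to high dose were called different for 0 of the 39 and 0% of all genes (edgeR; 1 of the 39 had an unadjusted p under 0.05, DESeq2 called 0).

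Against vehicle the formulas, the only water extracts, raised genes of every role at medium or low dose. This difference cannot be told apart from the code set, or from the solvent, as DMSO is labelled for vehicle alone. Sayeok-tang raised 19 at low, 13 at medium and 1 at high dose, and lowered 0, while 1.59%, 0.453% and 1.26% of all genes rose. Bojungikgi-tang raised 6 at low, 18 at medium and 2 at high dose, and lowered 0, while 0.239%, 0.787% and 0.334% of all genes rose. SLFN5 rose in all 6 groups. It was at 19.6, 20.8 and 21.1 CPM in vehicle, 37.3, 32.9 and 37.5 at low, 34.5, 32.1 and 31.1 at medium and 33, 30.0 and 28.8 at high Sayeok-tang, and at 35.9 and 40.6 CPM at medium Bojungikgi-tang, with a change of 0.89 ± 0.1 (edgeR adjusted p = 3.9e-08) in the latter. IFI44 was at 7.23, 5.69 and 7.16 CPM in vehicle, 13.9, 10.8 and 12.1 at low Sayeok-tang and 12.3 and 15.7 at medium Bojungikgi-tang, where the change was 1.07 ± 0.14 (edgeR adjusted p = 4.2e-06). OAS2 was at 6.68, 4.32 and 6.33 CPM in vehicle and 15.8, 9.77 and 12.6 at low Sayeok-tang (1.15 ± 0.2, edgeR adjusted p = 6.8e-04). DDX60 was at 7.42, 5.83 and 6.44 CPM in vehicle and 11.8 and 14.5 at medium Bojungikgi-tang (1.01 ± 0.19, edgeR adjusted p = 0.00268). By role, low Sayeok-tang raised 2 IFIT genes, 3 of 4 synthetases, MX1, HERC6 and DTX3L, 2 of 5 IFI genes, both sensing genes, STAT2 and IRF9, 2 PARP genes and 3 other effectors. ISG15 (-0.01), IFI6 (0.05), IFI35 (0.06) and PLAAT4 (-0.12) did not pass there.

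The counts for the formulas depended on single libraries. Low Sayeok-tang had 8 risen genes without its replicate 1 and 11 without vehicle replicate 1. Medium Sayeok-tang had 8 without its replicate 1 and 7 without vehicle replicate 2. Medium Bojungikgi-tang had 3 without its replicate 3, namely SLFN5, IFI44 and PARP9. Low Bojungikgi-tang had 3 and 1 without its replicates 2 and 3, and 2 without vehicle replicate 2. In fits on only the libraries compared, medium and low Bojungikgi-tang had 10 and 2. At high dose the 2 genes of Bojungikgi-tang were SLFN5 and IFI44, of which IFI44 was lost without either high library or without vehicle replicate 1 or 2, and Sayeok-tang gained a second gene without vehicle replicate 3. Beyond the 39, low Sayeok-tang raised 5 of 36 further interferon-induced genes, with EIF2AK2 (0.45 ± 0.09), the kinase PKR, and PLSCR1 (0.3 ± 0.07) among them. RIGI (0.6 ± 0.1), the sensor of short triphosphorylated RNA, also rose.

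Zizyphi Fructus, the jujube fruit, left the genes near vehicle in its 3 single libraries. The medians of the log2 ratios were 0.08, 0.04 and 0.10 at high, medium and low dose. At each dose 0 genes were past 1.5-fold above (1.03%, 0.656% and 0.704% of all genes) and 1 gene past it below (2.62%, 1.33% and 1.47%): IFI6 at high (-0.68) and medium dose (-0.61) and XAF1 at low dose (-0.7). IFI6 was at 12.4, 13 and 14.4 CPM at high, medium and low dose, against 29.5, 15.3 and 15.5 CPM in vehicle, where replicate 1 was the highest. Without that library 0 genes were past 1.5-fold at high or medium dose. At low dose the number was 2 without each of the vehicle libraries in turn. IFIT1, OAS1 and MX1 were at 6.67, 32.4 and 8.96 CPM at high dose, close to the vehicle values given above.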

How the data were processed

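RSEM expected counts per gene, deposited by the authors, came from RSEM 1.3.3 and STAR 2.7.3a on hg38, after Trim Galore 0.6.5 and with FastQC 0.11.9 as quality control, tools that the submitters' processing notes name without an order. No source used here gives the annotation release or the strand setting. In each library 90.0 to 92.1% of the values were whole. The expected counts were rounded, and 210 columns with no sample here were not used. Of the gene IDs 57055 were in GENCODE 29, which gave coordinates. The 39 genes, the other lists and the markers were chosen with earlier results of these data known. The rule for named genes was a panel of the members, the members called in each comparison with up to 4 more of the smallest p, and up to 4 genes of each other list.

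Genes passing edgeR's filterByExpr (16763, with all 39 members) were fitted over 54 libraries in 19 groups, with TMM scaling, a trended dispersion and edgeR's robust quasi-likelihood test (edgeR 4.0.16, limma 3.58.1, R 4.3.3). Residual degrees of freedom were 35 and the common biological coefficient of variation 0.0855. P-values were adjusted by Benjamini-Hochberg over all genes, and a call is an adjusted p under 0.05. Errors of log2 fold changes are the fold change divided by the square root of F. Groups of 1 library were compared with the vehicle mean as log2 ratios with a pseudocount of 0.5 CPM, without a test. Intervals are exact 95% Poisson intervals, which cover counting error only. Alternatives were DESeq2 1.42.0, other size factors, no filter, only the libraries compared, a replicate block, other pseudocounts, each library left out, and, chosen after seeing the data, leaving out the 3 libraries that stood apart and a block within code sets. The fit was tested on simulated data, with the same dispersion for every gene and changes planted only at high dose of the 2 formulas. For Sayeok-tang high against low (16382 genes), it found 73% of the genes with a planted change of 1.5-fold. It found 83% of those with 2-fold, and 4.3% of its calls were false. For Bojungikgi-tang high against low, with 2 libraries a group, it found 49% and 81%, and 2.3% of its calls were false. No change was planted for Scutellariae Radix. Whether these rates hold for the real libraries, 3 of which stood apart, was not tested. Tables and plots used Python 3.11.15, pandas 2.3.3, numpy 2.4.6 and matplotlib 3.10.9.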

Additional observations from a re-analysis of the deposited data

Results flagged for a closer look

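The log2 change from low to high dose differed between Scutellariae Radix and Pinelliae Tuber, by the edgeR interaction test adjusted over all genes, for 17 of the 39 genes, each more negative under Scutellariae Radix. Over all genes 5.35% were more negative and 4.24% less negative by this test. The difference of the changes was seen in the IFI family for IFI35 (-0.51), IFI6 (-1.16), IFI44L (-2.29), IFI44 (-0.65) and IFI27 (-0.94). The MX GTPases MX1 (-1.18) and MX2 (-1.65) and the synthetases OAS1 (-0.57) and OAS2 (-1.22) were also among them. The transcription factors were IRF7 (-0.69) and IRF9 (-1.02), and the PARP proteins PARP12 (-0.52), PARP9 (-0.41) and PARP10 (-1.05). The other effectors were EPSTI1 (-1.78), PLAAT4 (-1.55) and CMPK2 (-1.57). Scutellariae Radix low replicate 3 and Pinelliae Tuber high replicate 2, which stood apart from the other libraries, enter these contrasts, and without the 3 libraries that stood apart 19 genes passed, not all of them the same. IRF7 (-0.07, edgeR adjusted p = 0.872), IFI6 (-0.51, edgeR adjusted p = 0.264), IFI35 (-0.27, edgeR adjusted p = 0.234), EPSTI1 (-1.61, edgeR adjusted p = 0.101) and IFI44 (-0.6, edgeR adjusted p = 0.0504) then lost their call. IRF7, at 22.8, 46.4 and 23.8 CPM in the Pinelliae Tuber high libraries, ranged from -0.87 to -0.28 as each library was left out. A fit on only the libraries compared called 3 genes, OAS2, MX1 and PLAAT4.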

How the results depend on the processing

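The count of called genes among the 39 moved by more than 1.5 times under these alternatives, and the cause was not tested. No share of all genes is given beside these counts, so a shift in the 39 cannot be told apart from a shift in all calls. Without the low-count filter, the count was 15 (from 7) for Sayeok-tang high against low, 12 (from 3) for fresh ginger high against low, 2 (from 1) for dried ginger high against low, 5 (from 2) for Pinelliae Tuber high against low, 6 (from 1) for Sayeok-tang high against vehicle, 4 (from 2) for Bojungikgi-tang high against vehicle, 15 (from 6) for Bojungikgi-tang low against vehicle, 7 (from 2) for fresh ginger medium against vehicle, 5 (from 1) for fresh ginger low against vehicle, 10 (from 6) for dried ginger high against vehicle, 5 (from 1) for dried ginger medium against vehicle, 10 (from 1) for dried ginger low against vehicle, 7 (from 4) for Pinelliae Tuber high against vehicle, 4 (from 1) for Pinelliae Tuber medium against vehicle, 2 (from 0) for the difference in change of fresh ginger against dried ginger. With only the libraries compared, the count was 18 (from 7) for Sayeok-tang high against low, 12 (from 0) for Bojungikgi-tang high against low, 15 (from 3) for fresh ginger high against low, 0 (from 2) for Pinelliae Tuber high against low, 10 (from 28) for Scutellariae Radix high against low, 3 (from 1) for Sayeok-tang high against vehicle, 1 (from 2) for Bojungikgi-tang high against vehicle, 10 (from 18) for Bojungikgi-tang medium against vehicle, 2 (from 6) for Bojungikgi-tang low against vehicle, 0 (from 2) for fresh ginger medium against vehicle, 0 (from 1) for dried ginger medium against vehicle, 3 (from 1) for dried ginger low against vehicle, 0 (from 4) for Pinelliae Tuber high against vehicle, 3 (from 1) for Pinelliae Tuber medium against vehicle, 22 (from 13) for fresh ginger high against dried ginger high, 9 (from 27) for Scutellariae Radix high against Pinelliae Tuber high, 3 (from 17) for the difference in change of Scutellariae Radix against Pinelliae Tuber. Without the 3 libraries that stood apart, chosen after seeing the data, the count was 19 (from 7) for Sayeok-tang high against low, 18 (from 3) for fresh ginger high against low, 2 (from 1) for dried ginger high against low, 0 (from 2) for Pinelliae Tuber high against low, 3 (from 1) for Sayeok-tang high against vehicle, 24 (from 13) for Sayeok-tang medium against vehicle, 4 (from 2) for Bojungikgi-tang high against vehicle, 18 (from 6) for Bojungikgi-tang low against vehicle, 2 (from 1) for fresh ginger low against vehicle, 10 (from 1) for dried ginger low against vehicle, 2 (from 4) for Pinelliae Tuber high against vehicle, 2 (from 1) for Pinelliae Tuber medium against vehicle, 23 (from 13) for fresh ginger high against dried ginger high. With DESeq2, the count was 7 (from 3) for fresh ginger high against low, 2 (from 1) for Sayeok-tang high against vehicle, 12 (from 6) for Bojungikgi-tang low against vehicle, 4 (from 2) for fresh ginger medium against vehicle, 2 (from 1) for fresh ginger low against vehicle, 5 (from 1) for dried ginger low against vehicle. With pseudocount 0.1 CPM, the count was 3 (from 0) for Coptidis Rhizoma low against vehicle, 2 (from 1) for Zizyphi Fructus low against vehicle. With CPM from total counts, the count was 0 (from 1) for Zizyphi Fructus medium against vehicle. With pseudocount 1 CPM, the count was 0 (from 1) for Zizyphi Fructus low against vehicle. Leaving out each library in turn gave 1 to 2 for Bojungikgi-tang high against vehicle, 1 to 9 for Bojungikgi-tang low against vehicle, 3 to 19 for Bojungikgi-tang medium against vehicle, 0 to 8 for Pinelliae Tuber high against low, 2 to 5 for Pinelliae Tuber high against vehicle, 0 to 1 for Pinelliae Tuber medium against vehicle, 0 to 7 for Sayeok-tang high against low, 1 to 2 for Sayeok-tang high against vehicle, 8 to 19 for Sayeok-tang low against vehicle, 7 to 14 for Sayeok-tang medium against vehicle, 7 to 16 for Scutellariae Radix medium against vehicle, 4 to 14 for fresh ginger high against dried ginger high, 0 to 2 for fresh ginger high against low, 7 to 15 for fresh ginger high against vehicle, 0 to 3 for fresh ginger low against vehicle, 0 to 4 for fresh ginger medium against vehicle, 1 to 10 for dried ginger high against vehicle, 0 to 5 for dried ginger low against vehicle, 0 to 1 for dried ginger medium against vehicle, 1 to 2 for Coptidis Rhizoma low against vehicle, 0 to 1 for Zizyphi Fructus high against vehicle, 2 to 2 for Zizyphi Fructus low against vehicle, 0 to 1 for Zizyphi Fructus medium against vehicle. For dried ginger high against vehicle the balance turned from 4 risen and 2 fallen to 0 and 1 without vehicle replicate 1 and to 0 and 2 without vehicle replicate 2. The counts for Scutellariae Radix high ranged from 26 to 28 against low, 23 to 26 against vehicle and 25 to 28 against Pinelliae Tuber. XAF1, TRIM22 and SAMD9L had few reads, which limits what their values show.

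Replicate numbers are shared between groups, but the labels do not say that they pair libraries. Same-numbered libraries deviated together with correlations from -0.339 to 0.201, and in 0 of 27 comparisons were all over 0.1. In 2 of 22 comparisons with 3 pairs, 6 of 6 libraries were closest to their own number. With replicate block, the count was 5 (from 3) for fresh ginger high against low, 1 (from 2) for Pinelliae Tuber high against low, 1 (from 2) for Bojungikgi-tang high against vehicle. With replicate block within code set, the count was 7 (from 3) for fresh ginger high against low. In the other comparisons the replicate block left the count within 1.5 times.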
